A study of Homo sapiens with 6 samples.

Results

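The genes described here encode amino acid transporters of the solute carrier (SLC) families SLC1A, SLC3A, SLC6A, SLC7A, SLC36A, SLC38A and SLC43A in SW480, a long-established cell line from a human colorectal adenocarcinoma. They were chosen by symbol in the annotation of the Affymetrix HG-U133 Plus 2.0 array, with pseudogenes left out, and 56 of the 19775 genes tested met the rule. Each gene was represented by the probe set annotated to that symbol alone with the highest mean over all 6 arrays, a choice of probe set that uses no difference between groups. The families themselves were picked with earlier results of these data known. Another 6 symbols begin in the same way but name antisense transcripts or the neighbouring gene SLC7A6OS, and they were not counted as transporters. Several SLC6 members carry monoamines, creatine or osmolytes, and these are kept as a group of their own below.

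The labels describe 3 biological replicates of SW480 cells transfected with CPEB3, an RNA-binding protein that regulates the translation of its target mRNAs, and 3 biological replicates transfected with a negative control (NC). All were kept in the same serum-containing medium, and the labels leave unsaid the construct, the time after transfection and whether pools or single clones were used. They name no culture or day either, so the spread behind each p-value is that of these 6 samples and may be technical. CPEB3 mRNA itself showed no clear rise under the CPEB3 label. Its brightest probe set read 5.37 ± 0.03 with the CPEB3 label and 5.32 ± 0.07 with the NC label (log2 intensity, SD, n = 3 each). Its 3 dimmer probe sets were all lower under the CPEB3 label, by 1.44, 0.35 and 0.25 on the log2 scale (limma, adjusted over all probe sets). Whether any of the 4 lies within the transfected sequence is not known here, so they may check nothing. With the construct unsaid, whether a rise or a fall of CPEB3 was intended is not known either. The groups are therefore named by their labels throughout, and every direction rests on those labels.

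Amino acids cross the plasma membrane through carriers that differ in substrate, in coupling to sodium, potassium, chloride or protons, and in whether they accumulate a substrate or exchange one amino acid for another. Some work only as heterodimers, in which a glycoprotein heavy chain brings a transporting light chain to the cell surface. In colorectal cancer cells the best known are the cystine/glutamate exchanger xCT, which supplies cysteine for glutathione, and the leucine and glutamine carriers that feed protein synthesis and the growth kinase mTORC1. When amino acids run short, the kinase GCN2 slows general translation while the transcription factor ATF4 is made, and ATF4 switches on many of these carriers together with enzymes of amino acid synthesis.

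Of the 56 transporters, 8 were lower and 2 were higher under the CPEB3 label (limma, Benjamini-Hochberg adjusted p under 0.05 over all genes), and 46 did not pass. The share past the threshold, 17.9%, lay below the 23.3% of all genes that passed. By direction, 14.3% of the transporters and 12.5% of all genes were lower, and 3.57% and 10.9% were higher. The median difference was -0.01 over the transporters and 0.02 over all genes, and most members lay close to 0. The called differences were of moderate size, with a median of 0.50 on the log2 scale against 0.34 over all called genes. The 3 arrays of one group did not overlap the 3 of the other in 18 transporters (32.1%), 6 higher and 12 lower. Over all genes that share was 39.1%, made up of 19.9% higher and 19.1% lower.

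Of the 56 transporters, 18 had a mean below the median probe set (3.90 on the log2 scale), and 0 of these passed limma's threshold, nor did any of them reach an unadjusted p under 0.05. No detection calls were used, so whether those 18 carriers lay above background was not tested. Among the 38 transporters at or above that median, 8 were lower and 2 higher, while of all genes at or above it 17.7% were lower, 14.5% higher and 32.2% past the threshold. The hybridization spike-ins, control RNAs added to each hybridization, averaged 0.18 lower in the arrays labelled CPEB3. Centring each array on them moved the median of all genes from 0.02 to 0.20 and the counts of transporters to 16 higher and 5 lower. The part of this spike-in difference in the results was not tested.

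**Figure D1:**
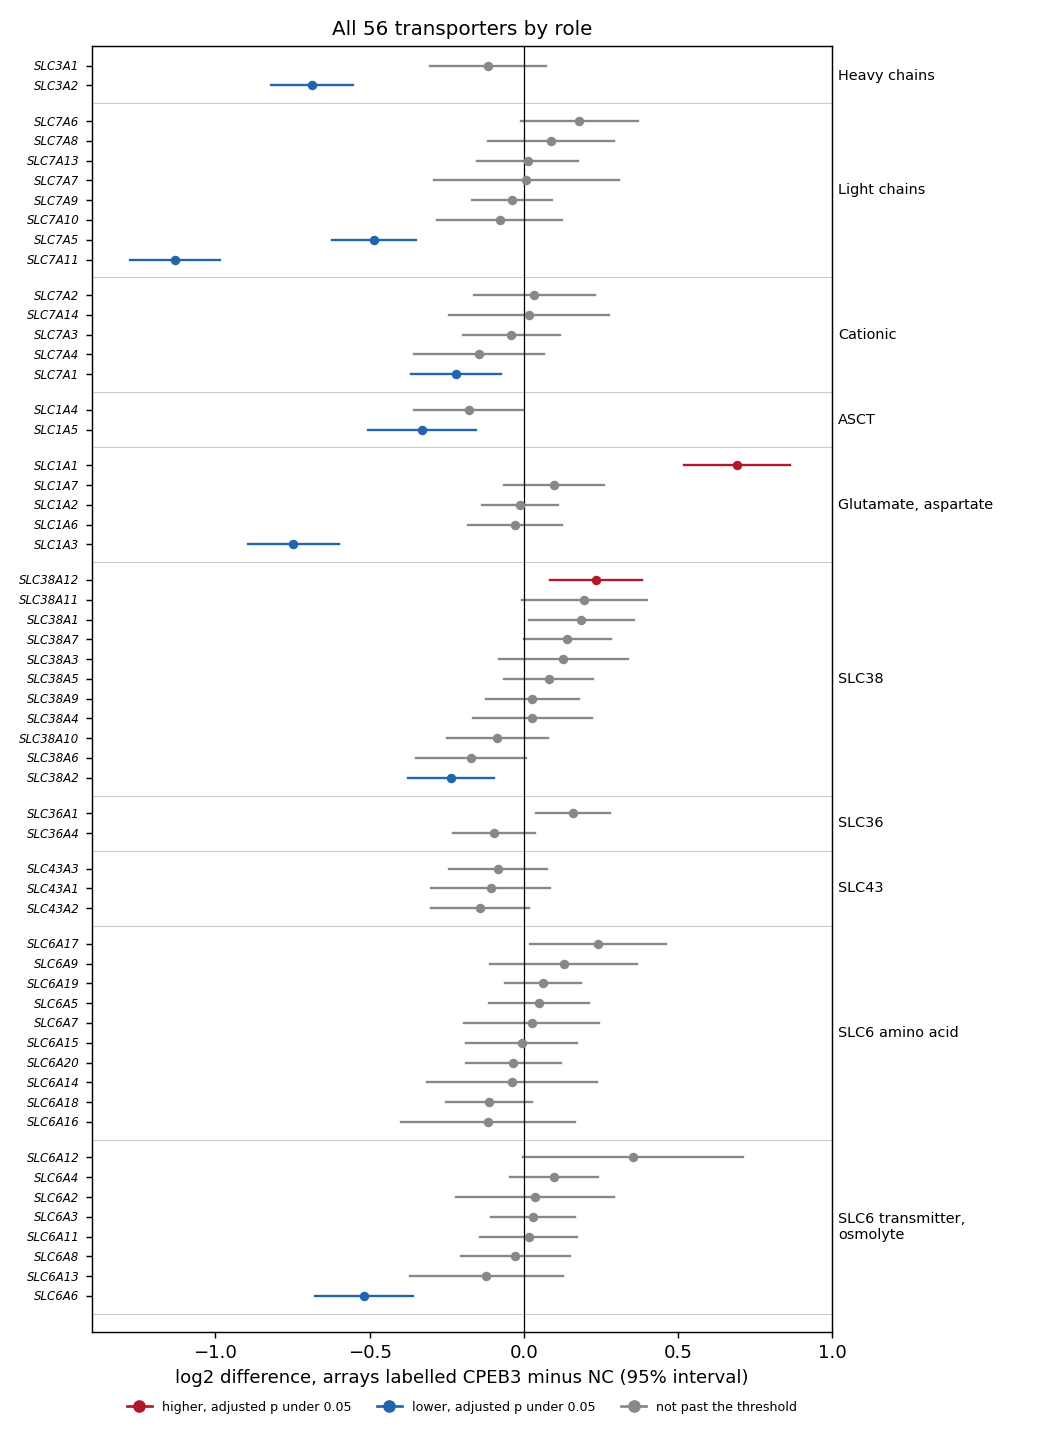
The log2 difference (arrays labelled CPEB3 minus arrays labelled NC, horizontal axis) of each of the 56 transporters, with its 95% interval from limma, grouped by role. Blue marks the 8 that were lower and red the 2 that were higher past the adjusted threshold, and the grey members cluster around 0.

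The steepest fall was in a heterodimeric carrier. SLC7A11, the light chain of xCT, which imports cystine in exchange for glutamate, read 6.95, 7.13 and 7.08 under the CPEB3 label and 8.17, 8.19 and 8.20 under the NC label. The 3 NC arrays were nearly alike, and the groups lay far apart. The difference was -1.13 (SE 0.06), a 2.19-fold fall (limma, Benjamini-Hochberg adjusted p = 4.93e-06), and it was the 1 transporter that fell at least 2-fold. All 3 of its probe sets fell, by 1.13, 1.06 and 0.38 on the log2 scale, the last at the dimmest of them. In bulk RNA a lower level per cell and fewer expressing cells cannot be told apart.

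SLC3A2 encodes the heavy chain 4F2hc (CD98), with which SLC7A11, SLC7A5 and several other light chains pair. Its 3 values were 7.07, 7.06 and 7.0 under the CPEB3 label and 7.67, 7.77 and 7.75 under the NC label. The spread within each group was small beside the gap between them, and at its single probe set the gene fell 1.61-fold (-0.69, SE 0.06; limma, Benjamini-Hochberg adjusted p = 5.77e-05). SLC7A5, the light chain LAT1, which exchanges glutamine for leucine and other large neutral amino acids, read 9.13, 9.11 and 9.05 against 9.52, 9.64 and 9.58. These groups were also apart, and SLC7A5 fell 1.40-fold (-0.48, SE 0.06; limma, Benjamini-Hochberg adjusted p = 5.16e-04).

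The other light chains did not pass at the probe sets that stand for them. SLC7A6, which encodes y+LAT2, an exchanger of cationic for neutral amino acids, differed by 0.18 (95% interval -0.01 to 0.37) and SLC7A8, the LAT2 light chain, by 0.09 (95% interval -0.12 to 0.29). Of the 5 probe sets of SLC7A8, a dim one was higher by 0.32 (limma, adjusted p = 0.0468 over all probe sets) and the others did not pass. SLC7A7, SLC7A9, SLC7A10 and SLC7A13 lay between -0.08 and 0.01, each with overlapping groups. The second heavy chain, SLC3A1, which carries the cystine transporter of kidney and intestine with SLC7A9, was dim (2.72 against 2.84) and its difference of -0.12 did not pass. Of the 8 light chains, 2 therefore fell past the threshold. Both pair with SLC3A2, as do SLC7A6, SLC7A7, SLC7A8 and SLC7A10, which did not pass.

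**Figure D2:**
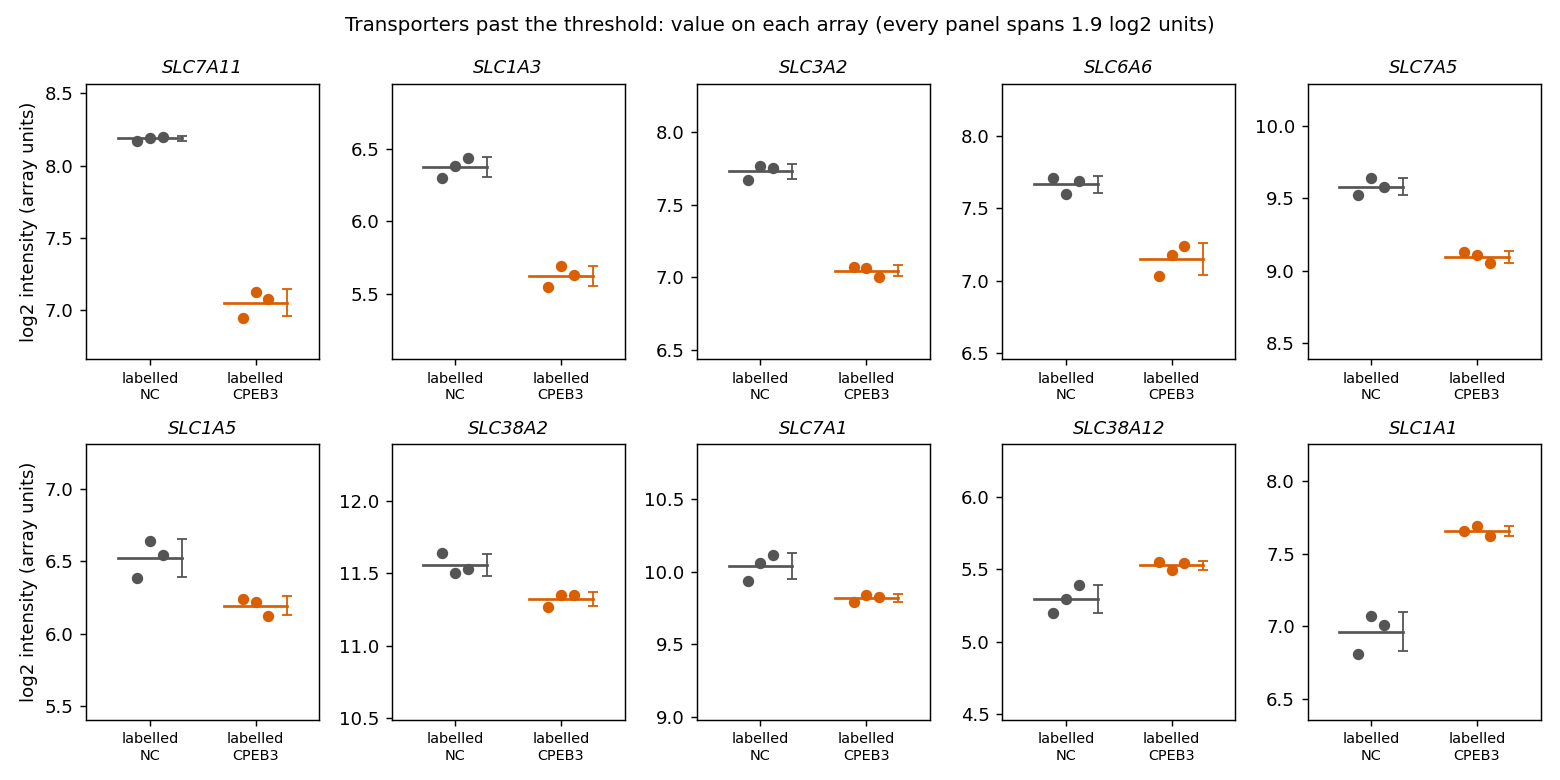
Log2 intensity on each array for the 10 transporters past the threshold, with the arrays labelled NC in grey and those labelled CPEB3 in orange, horizontal bars for group means and whiskers for the SD (n = 3 each). Every panel spans the same range, the groups do not overlap in any panel, and SLC7A11 shows the widest gap, from 8.18 to 7.05.

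Among the neutral amino acid exchangers, SLC1A5 (ASCT2), a sodium-dependent carrier through which many tumour cells take up glutamine, read 6.24, 6.22 and 6.12 under the CPEB3 label and 6.38, 6.64 and 6.54 under the NC label. The groups were apart, though the NC arrays spread more widely. It fell 1.26-fold (-0.33, SE 0.08; limma, Benjamini-Hochberg adjusted p = 0.0141). Spike-in centring (-0.15) ended this call, as did leaving out CPEB3 replicate 3 (-0.29). SLC1A4 (ASCT1), which exchanges alanine, serine and cysteine, had 5.43, 5.25 and 5.36 against 5.46, 5.66 and 5.44. The groups touched without overlapping, and the difference of -0.18 did not pass (adjusted p = 0.14). Its 5 probe sets disagreed, with 2 lower past the threshold (-0.28 each, adjusted over all probe sets) and another at 0.17.

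The carriers of glutamate and aspartate went in opposite directions. SLC1A3 (EAAT1), the sodium-coupled glutamate and aspartate transporter best known from astrocytes, read 5.55, 5.69 and 5.63 under the CPEB3 label and 6.30, 6.38 and 6.44 under the NC label. The groups lay well apart. It fell 1.68-fold (-0.75, SE 0.07; limma, Benjamini-Hochberg adjusted p = 6.43e-05), and its second, very dim probe set differed by -0.27 without passing. SLC1A1 (EAAT3), the epithelial and neuronal carrier that takes up glutamate, aspartate and cysteine, had 7.66, 7.69 and 7.62 against 6.81, 7.07 and 7.01. All 3 arrays labelled CPEB3 were above all 3 labelled NC, and the gene rose 1.62-fold (0.69, SE 0.08; limma, Benjamini-Hochberg adjusted p = 2.53e-04), the largest rise among the transporters. That rise rests on 1 of its 2 probe sets, since the other was dim and differed by 0.01. With the mean of both probe sets the rise was 0.35 and still past the threshold (adjusted p = 0.00397). The glutamate carriers SLC1A2, SLC1A6 and SLC1A7 did not pass, with differences of -0.01, -0.03 and 0.10.

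The mRNAs of the cationic amino acid carriers differed little. SLC7A1 (CAT-1), the widely expressed carrier of arginine and lysine, read 9.79, 9.84 and 9.83 under the CPEB3 label and 9.94, 10.06 and 10.12 under the NC label. The groups did not overlap, and the fall was 1.16-fold (-0.22, SE 0.06; limma, Benjamini-Hochberg adjusted p = 0.038). Of the 10 calls this one was lost in the most alternatives, among them spike-in centring (-0.04), averaging its 5 probe sets (-0.10) and leaving out any single array except NC replicate 1 (-0.23 to -0.18). Its most variable probe set, a dim one, differed by 0.29 in the other direction without passing. SLC7A2, SLC7A3, SLC7A4 and SLC7A14 did not pass, and their differences ran from -0.15 for SLC7A4 to 0.03 for SLC7A2.

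**Figure D3:**
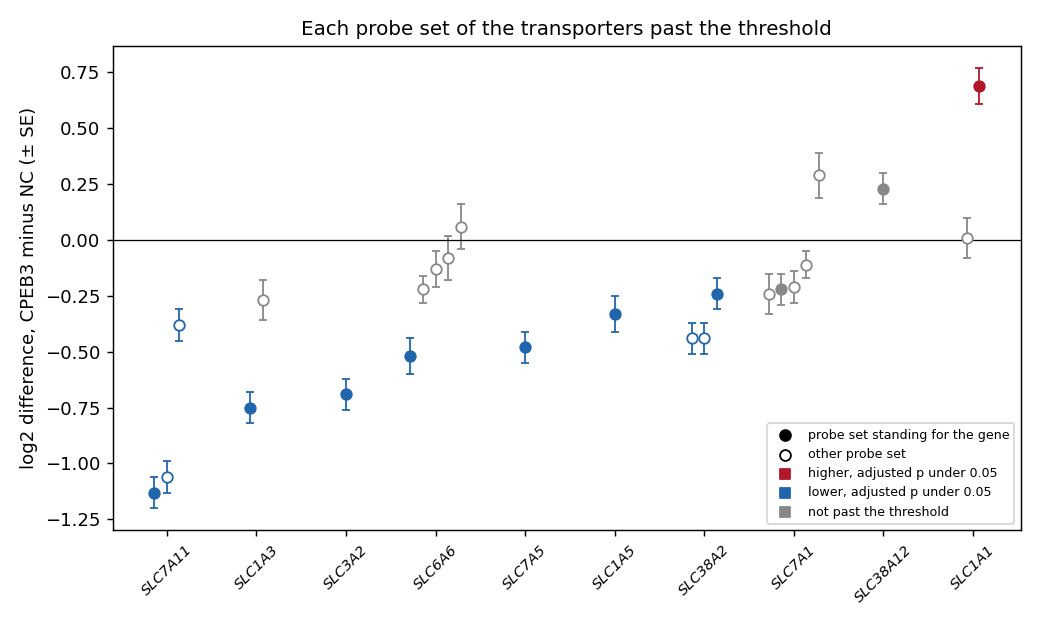
The log2 difference (± SE, arrays labelled CPEB3 minus NC) at every probe set of the 10 transporters past the threshold, filled where the probe set stands for the gene and coloured where p passed after adjustment over all probe sets. SLC7A11 and SLC38A2 are lower at all 3 of their probe sets, and SLC1A1, SLC1A3 and SLC6A6 are past the threshold at only 1 of several. SLC7A1 and SLC38A12 do not pass this wider adjustment.

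The SLC38 family, sodium-coupled carriers of glutamine, alanine and other small neutral amino acids, had 1 of 11 members lower and 1 higher. SLC38A2 (SNAT2), a system A carrier whose gene is induced by amino acid shortage, read 11.27, 11.35 and 11.35 under the CPEB3 label and 11.64, 11.50 and 11.53 under the NC label. The groups did not overlap, and the gene fell 1.18-fold (-0.24, SE 0.06; limma, Benjamini-Hochberg adjusted p = 0.0237). This probe set is the brightest of 3, and the others gave a larger fall, -0.44 each, so that the mean of the 3 was -0.37. The call at the brightest probe set was lost with spike-in centring (-0.06), and also without NC replicate 1 or any array labelled CPEB3 (-0.25 to -0.20).

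SLC38A1 (SNAT1), the related carrier that loads glutamine into many tumour cells, was 9.15, 8.91 and 8.90 against 8.81, 8.79 and 8.80. The first of these arrays stood above the rest, and the difference of 0.19 (95% interval 0.02 to 0.36) missed the threshold with adjusted p = 0.111. SLC38A12, listed in older annotation as TMEM104, rose by 0.23 (SE 0.07, 5.55, 5.49 and 5.54 against 5.20, 5.29 and 5.39; limma, Benjamini-Hochberg adjusted p = 0.0314), a call lost on leaving out any single array except NC replicate 3 (0.19 to 0.25). Its groups did not overlap. SLC38A7, a lysosomal glutamine carrier, differed by 0.14 (adjusted p = 0.14), while another of its 4 probe sets was higher by 0.31 (limma, adjusted p = 0.0433 over all probe sets). SLC38A9, the lysosomal arginine sensor of mTORC1, differed by 0.03 (95% interval -0.12 to 0.18). The other 6 members of the family lay between -0.17 and 0.20 and did not pass.

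The proton-coupled SLC36 carriers and the SLC43 family had 0 of 5 members past limma's threshold, and 1 of the 5 had an unadjusted p under 0.05. That was SLC36A1 (PAT1), which exports amino acids from lysosomes, at 6.54, 6.52 and 6.52 against 6.36, 6.37 and 6.38. Both groups were tight and apart, but the difference was only 0.16 (95% interval 0.04 to 0.28) and missed the threshold with adjusted p = 0.0602. SLC36A4 differed by -0.10. The sodium-independent carriers SLC43A1 (LAT3) and SLC43A2 (LAT4), which move large neutral amino acids, differed by -0.11 and -0.14, and SLC43A3, which carries purine nucleobases, by -0.08.

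The SLC6 family is made up of sodium- and chloride-coupled carriers. Of its 10 amino acid carriers 7 lay below the median probe set, and 0 of the 10 passed limma's threshold (1 had an unadjusted p under 0.05). SLC6A14 (ATB0,+), a broad carrier known to be raised in many colorectal tumours, read 1.16, 0.93 and 1.0 against 0.84, 1.01 and 1.35. These groups overlapped at the bottom of the scale. SLC6A19 (B0AT1), the neutral amino acid carrier of the intestinal brush border, was 4.75 ± 0.01 against 4.68 ± 0.04 (SD, n = 3 each), and SLC6A17, a carrier of synaptic vesicles, had the largest difference of the group, 0.24 (adjusted p = 0.111).

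Among the 8 carriers of transmitters and osmolytes, SLC6A6, the taurine transporter, was the 1 past the threshold. Its arrays read 7.03, 7.18 and 7.24 where CPEB3 was labelled and 7.71, 7.60 and 7.69 where NC was labelled. The groups were apart and the gene fell 1.43-fold (-0.52, SE 0.07; limma, Benjamini-Hochberg adjusted p = 8.40e-04). Its other 4 probe sets were dimmer and none passed, with differences of -0.22 to 0.06, and averaging all 5 gave -0.18 and ended the call (adjusted p = 0.084). SLC6A8, the creatine transporter, differed by -0.03 (95% interval -0.20 to 0.15), and the carriers of noradrenaline, dopamine and serotonin, SLC6A2, SLC6A3 and SLC6A4, by 0.04, 0.03 and 0.10. SLC6A12, the betaine and GABA carrier, had the widest interval, 0.35 (95% interval 0.00 to 0.71), from arrays that overlapped.

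The counts shifted at their edges on leaving out single arrays, which also makes the fit smaller. Over all genes, 1861 to 2412 were then lower in place of 2470, and 1512 to 1942 higher in place of 2146. The part of the smaller fit in these losses was not tested. Without CPEB3 replicate 3 the transporters lower numbered 5 in place of 8, and without any 1 array labelled CPEB3 those higher numbered 1 in place of 2. SLC7A11, SLC3A2, SLC7A5, SLC1A3 and SLC1A1 kept direction and call in every alternative that could be run for them, leaving out each array in turn and spike-in centring included. Across those alternatives SLC7A11 ranged from -1.17 to -0.86, SLC1A3 from -0.78 to -0.51, SLC3A2 from -0.72 to -0.51, SLC7A5 from -0.52 to -0.31 and SLC1A1 from 0.35 to 0.87. SLC3A2 and SLC7A5 have 1 probe set each, so for them no alternative could try another probe set.

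Because several of these carriers are known ATF4 targets, their promoters were searched for the ATF4 and C/EBP composite element, whose letters TGATGNAA were sought on both strands. The RefSeq windows (GRCh38.p14) reach from 250 bases before each annotated start to 50 after it, so the start is base 251 of 300, and a gene can have several. Of the 56 transporters 42 had a window, and 6 of these 42 genes (14.3%) held the letters in at least 1 window, against 4.46% of the 27305 genes with a window; by window the shares were 9.38% of 64 and 3.62% of 35116. The 6 were SLC1A3, SLC1A4, SLC1A5, SLC38A1, SLC3A2 and SLC7A1, of which 4 fell past the threshold and SLC1A4 and SLC38A1 did not pass. Of the 10 transporters past the threshold 8 had a window, and SLC7A5, SLC38A2, SLC38A12 and SLC1A1 held no match there. The other 2, SLC6A6 and SLC7A11, the gene with the steepest fall, had no window and could not be searched. A match is a description of letters and not a binding site, a gene with several windows has more chances of one, and no test was made.

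The windows of the 4 called carriers are printed because they can be read beside the falls given above, and that of ASNS, the asparagine synthetase gene whose amino acid response element is the textbook case, serves as a reference. Each is given 5′ to 3′ on the gene's own strand, with the match in capitals. The lines show the windows of ASNS (chr7:97872359-97872658, minus strand), SLC1A3 (chr5:36596338-36596637, plus strand), SLC1A5 (chr19:46784765-46785064, minus strand), SLC7A1 (chr13:29595639-29595938, minus strand) and SLC3A2 (chr11:62881449-62881748, plus strand).
ASNS: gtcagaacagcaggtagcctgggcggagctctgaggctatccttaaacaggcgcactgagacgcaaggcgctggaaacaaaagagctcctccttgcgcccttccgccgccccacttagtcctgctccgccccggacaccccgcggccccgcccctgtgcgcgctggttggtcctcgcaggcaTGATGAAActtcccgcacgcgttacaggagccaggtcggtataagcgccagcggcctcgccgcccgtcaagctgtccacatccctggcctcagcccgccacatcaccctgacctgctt
SLC1A3: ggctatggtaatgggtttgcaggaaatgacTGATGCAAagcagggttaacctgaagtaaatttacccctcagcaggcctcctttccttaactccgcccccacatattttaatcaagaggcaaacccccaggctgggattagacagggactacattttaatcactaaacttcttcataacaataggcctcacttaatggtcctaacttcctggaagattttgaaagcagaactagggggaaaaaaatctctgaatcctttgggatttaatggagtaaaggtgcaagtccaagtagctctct
SLC1A5: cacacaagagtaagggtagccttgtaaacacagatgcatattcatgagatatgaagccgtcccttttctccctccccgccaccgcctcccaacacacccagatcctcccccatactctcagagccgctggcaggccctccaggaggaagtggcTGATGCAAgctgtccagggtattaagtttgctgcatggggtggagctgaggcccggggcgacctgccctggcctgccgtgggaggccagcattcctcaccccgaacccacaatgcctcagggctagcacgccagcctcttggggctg
SLC7A1: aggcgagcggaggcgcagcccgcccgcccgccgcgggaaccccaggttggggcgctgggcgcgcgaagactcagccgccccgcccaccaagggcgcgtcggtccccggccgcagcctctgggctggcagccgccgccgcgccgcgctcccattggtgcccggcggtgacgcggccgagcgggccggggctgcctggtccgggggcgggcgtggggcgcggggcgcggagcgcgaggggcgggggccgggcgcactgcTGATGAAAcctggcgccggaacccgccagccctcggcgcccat
SLC3A2: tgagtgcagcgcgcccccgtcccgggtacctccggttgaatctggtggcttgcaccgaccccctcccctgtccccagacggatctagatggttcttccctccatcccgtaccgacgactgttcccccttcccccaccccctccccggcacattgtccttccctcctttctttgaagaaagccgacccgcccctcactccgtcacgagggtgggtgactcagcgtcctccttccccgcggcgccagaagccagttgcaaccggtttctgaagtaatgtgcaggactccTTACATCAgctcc

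The match begins at base 183 of the ASNS window, base 31 for SLC1A3 and base 154 for SLC1A5, all before the start, and at base 258 for SLC7A1 and base 288 for SLC3A2, just after it. SLC1A3 and SLC1A5 hold TGATGCAA, ASNS and SLC7A1 hold TGATGAAA, and SLC3A2 holds the reverse complement form, TTACATCA. For SLC1A3, SLC1A5 and SLC3A2 the window shown is 1 of 3, and the others of these genes held no match, whereas SLC7A1 has 1 window.

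The genes around the carriers were counted from lists of the same pathway, in which the transporters themselves are not repeated. The amino acid response list, which holds GCN2, its substrate gene EIF2S1 and its inhibitor IMPACT, ATF4 and genes of the response downstream, had 16 of 24 measured members lower past limma's threshold and 0 higher (also 0 higher at an unadjusted p under 0.05), with a median difference of -0.75 against 0.02 over all genes, of which 12.5% were lower. EIF2S1 (0.00) and IMPACT (-0.05), named outside the rule for genes, did not pass. ATF4 mRNA fell from 10.44 to 9.92 (-0.52, 1.43-fold), and the GCN2 gene EIF2AK4 differed by -0.04. CHAC1, which degrades glutathione, fell 1.74-fold, TRIB3, a pseudokinase that restrains ATF4, 1.95-fold, and DDIT3, the transcription factor CHOP, 2.58-fold. PPP1R15A, which restores translation, fell 2.87-fold, VEGFA, an angiogenic growth factor, 2.15-fold, and CEBPB, a dimer partner of ATF4, 2.04-fold. ASNS fell 1.77-fold (9.36 to 8.54) and ATF3 3.87-fold, each at its brightest probe set. With probe sets able to match more than 1 transcript left out, dimmer ones stood for both genes and differed by 0.00 and 0.01. Which probe set reads these mRNAs better was not tested. Among the genes named here as falling, no limma Benjamini-Hochberg adjusted p exceeded 4.34e-04. The list overlaps with general stress and growth responses, and with spike-in centring it still counted 16 lower, with 2 higher. Leaving out each array in turn gave 16 or 17 lower. With probe sets able to match more than 1 transcript left out, 12 were lower and 0 higher. Genes with no other probe set have no value in that setting.

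**Figure D4:**
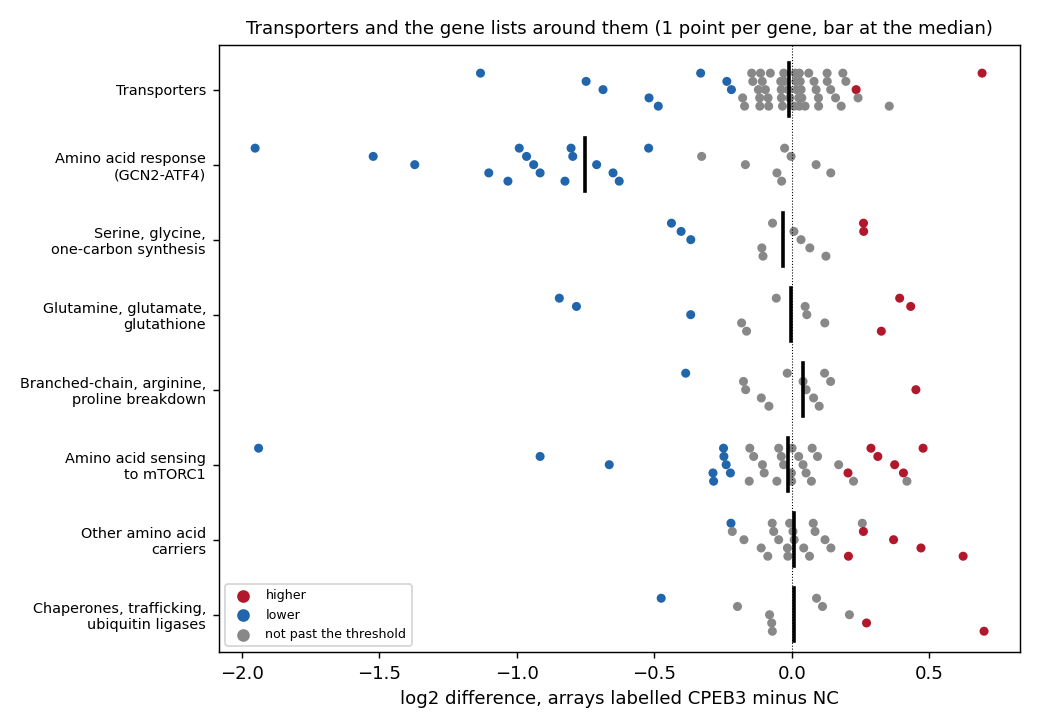
The log2 difference (arrays labelled CPEB3 minus NC, horizontal axis) of each measured gene in the transporter family and in 7 lists around it, coloured by call, with a bar at each median. The amino acid response list stands at a median of -0.75, and the medians of the other lists and of the transporters lie between -0.03 and 0.04.

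The enzyme lists held calls in both directions, and their counts are to be read against the 12.5% of all genes that were lower and the 10.9% that were higher. With 12 or 13 genes a list, these counts show nothing particular to it. In serine, glycine and one-carbon synthesis 3 of 12 measured genes fell and 2 rose (median -0.03), and the number that rose ranged from 0 to 2 on leaving out single arrays. MTHFD2, the mitochondrial folate enzyme, fell by 0.44, and PSAT1 and PHGDH, of serine synthesis, by 0.40 and 0.37, the last pair not past the threshold with spike-in centring. PYCR3, of proline synthesis, rose by 0.26. In the list for glutamine, glutamate and glutathione, 3 of 12 fell and 3 rose (median 0.00). Both subunits of glutamate-cysteine ligase, the rate-limiting step of glutathione synthesis, fell beside SLC7A11, GCLC by 0.84 and GCLM by 0.78. GSS, the second enzyme of that synthesis, rose by 0.33. The aspartate aminotransferases split, with cytosolic GOT1 lower (-0.37, or -0.19 and not past the threshold with spike-in centring) and mitochondrial GOT2 higher (0.39), and OPLAH, which recycles oxoproline to glutamate, rose by 0.43. In the breakdown of branched-chain amino acids, arginine and proline, 1 of 13 fell and 1 rose. The 1 that rose was BCKDHB, of the branched-chain ketoacid dehydrogenase (0.45). The arginase gene ARG2 (-0.39) read 0.33 at its other, dimmer probe set when probe sets able to match more than 1 transcript were left out. For these named enzymes no limma Benjamini-Hochberg adjusted p exceeded 0.0291.

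Genes of amino acid sensing to mTORC1 fell in 9 of 36 members and rose in 6 (median -0.01), where of all genes at or above the median probe set, as 34 of these are, 17.7% fell and 14.5% rose. The counts were 3 and 13 with spike-in centring, and the number that fell ranged from 3 to 7 on leaving out single arrays. DDIT4, an mTORC1 inhibitor, fell 3.83-fold, the leucine sensor SESN2, which is also in the amino acid response list, 1.88-fold, and SAMTOR, the S-adenosylmethionine sensor, 1.58-fold. The arginine sensor family member CASTOR2 rose by 0.48 and the Ragulator subunit LAMTOR4 by 0.41, while MTOR itself differed by -0.03. TSC2, which restrains mTORC1, read 0.37 higher but -0.20 at its other, dimmer probe set under the same restriction to probe sets of 1 transcript. Carriers of amino acids and peptides outside the 7 families rose in 5 of 25 members and fell in 1 (median 0.01), with 2 to 5 rising on leaving out single arrays. The mitochondrial ornithine carrier SLC25A15 rose by 0.62, the lysosomal cystine exporter CTNS by 0.47 and the aromatic amino acid carrier SLC16A10 by 0.37. CTNS thus rose where SLC7A11, the importer of cystine at the cell surface, fell. Among chaperones, trafficking factors and ubiquitin ligases of transporters, 2 of 10 rose and 1 fell. The counts of this list and of the other carriers are to be read against the 10.9% of all genes that were higher and the 12.5% that were lower. With so few genes they show nothing particular to either list. ARL6IP5, a binding partner of SLC1A1 known to restrain its glutamate uptake, rose by 0.70. The ubiquitin ligase gene NEDD4L (-0.47) lost its call when its probe sets were averaged (-0.12). For the sensing, carrier and trafficking genes named, apart from MTOR, no limma Benjamini-Hochberg adjusted p exceeded 0.0155.

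The arrays were alike beyond these differences, with r of 0.997 to 0.998 within a group and 0.991 to 0.992 between groups over all probe sets, which are not independent replicates. The epithelial identity of the line was visible in EPCAM (11.13 against 11.09), KRT18 and KRT19, while the colon markers CDH17 and LGALS4 lay below the median probe set. VIL1, CDX1, CDX2 and GPA33 lay between 4.16 and 5.14 under the CPEB3 label, a range that also holds CD3E and PECAM1 below. The counts of markers are to be read against the 10.9% of all genes that were higher and the 23.3% past the threshold in either direction. Of 12 colon epithelial markers 2 were higher, KRT20 (0.87) and KRT18 (0.26). Leukocyte markers had 1 of 8 higher, with a summed linear intensity of 109 to 121 under the CPEB3 label and 100 to 104 under the NC label, and fibroblast markers 1 of 9 higher (179 to 191 against 159 to 177). PTPRC (1.62 against 1.48), LUM and CDH5 were near the bottom of the scale, but other members of their lists were not. CD3E (4.92 against 4.74), COL1A1 (6.48 against 6.32) and PECAM1 (4.86 against 4.79) lay above the median probe set. Below it lay 5 of the 8 leukocyte, 5 of the 9 fibroblast, 4 of the 6 endothelial and 0 of the 6 neural markers. Of the 6 measured endothelial and 6 brush border markers 0 passed limma's threshold and 0 had an unadjusted p under 0.05, and of 6 neural markers 2 were higher. The part of these markers in the transporter results was not tested.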

How the data were processed

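The authors measured gene expression on 6 Affymetrix HG-U133 Plus 2.0 arrays and deposited, for every probe set on every array, a linear normalized intensity. RMA is named for it per the submitters' processing notes, without its version or how the values became linear. RMA brings the arrays to 1 common distribution, so total RNA per cell cannot be read from them, and differences at dim probe sets are understated. Log2 was taken before any test, as the plan provided. Precision is limited by the number of arrays. Of 54675 probe sets, 62 are controls, 41091 had 1 gene symbol and 1801 several, and the rest are unnamed here. All 56 transporters matched the RefSeq table by Entrez identifier.

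Groups came from the sample titles. Differences are arrays labelled CPEB3 minus NC, tested with limma 3.58.1 in R 4.3.3 (functions lmFit and eBayes, a model of group alone, two-sided, Benjamini-Hochberg adjustment over all 19775 genes, threshold 0.05, 5.06 prior and 4 residual degrees of freedom). Lists were described by counts and medians, with no set test. Any transporter could be named. From each list the 6 largest differences among genes past the threshold were eligible, and ATF4, ASNS, CHAC1, TRIB3, SESN2, DDIT3 and CPEB3 whatever their result. EIF2AK4, EIF2S1, IMPACT, MTOR and the cell type markers were named outside that rule. The members and lists were chosen with earlier results of these data known. The fit was tested on simulated data of 19775 genes, where it found 4 of 50 genes changed by 0.25 (log2), 36 of 50 changed by 0.5, 48 of 50 changed by 1 and all 50 changed by 2, with 10 false calls among 148. That simulation made 148 calls where these data gave 4616. Its cutoff on the unadjusted p was therefore stricter, and the shares found need not hold for these data. Figures were drawn with matplotlib 3.10.9.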

Additional observations from a re-analysis of the deposited data

How the results depend on the processing

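Altogether 19 alternatives changed the probe set, the scaling, the variance model, the threshold or the arrays used. Spike-in centring gave 16 transporters higher and 5 lower (2 and 8 as reported), and 7766 genes higher and 1038 lower in all. At a threshold of 0.01 the counts were 1 and 5, and 1083 and 1520 over all genes. Leaving out probe sets able to match more than 1 transcript they were 1 and 4, of 45 transporters that still had a value, and with an intensity trend 4 were higher. Leaving out each array in turn gave 1 to 3 transporters higher and 5 to 7 lower, and 1512 to 1942 genes higher and 1861 to 2412 lower. Of the 10 called transporters, 7 kept direction and call with spike-in centring, and SLC1A5, SLC38A2 and SLC7A1 lost theirs. Counting a gene when any of its probe sets passed gave 3 higher and 8 lower, an alternative added after seeing the data.

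Directions turned for SLC7A1 (0.29), CD44 (-0.45) and CPEB3 (-1.44) with the most variable probe set, where SHMT1 came to about 0 (-0.01). With the mean of probe sets they turned for CD44 (-0.13) and CPEB3 (-0.50). With probe sets able to match more than 1 transcript left out they turned for ARG2 (0.33) and TSC2 (-0.20). In that setting SLC1A4 (0.05), ASNS (0.00), ATF3 (0.01) and SHMT1 (-0.01) came to about 0, which is no change of direction. Each of these genes was then read at a dimmer probe set. Spike-in centring brought SLC1A4 to 0.00 and turned SLC6A14 (0.14). Leaving out an array turned SLC6A14 (range -0.15 to 0.10, with 0.01 without CPEB3 replicate 2 and 0.10 without NC replicate 3) and SLC38A9 (range -0.02 to 0.08, the lowest without NC replicate 2), neither of them called. The cause of these changes was not tested.

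No pairing by replicate number was seen. The deviations of same-numbered arrays correlated with r of 0.01, 0.00 and 0.09, and those of differently numbered arrays with -0.09 to 0.09. With 3 arrays a group, this cannot exclude a pairing. With the replicate number as a block, 3 transporters were higher and 7 lower, the call lost being SLC38A2, and over all genes 1946 were higher and 2316 lower.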

Other observations

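The antisense transcript SLC38A2-AS1, not counted as a transporter and picked out after its value was seen, was higher by 0.32 in the arrays labelled CPEB3 (limma, Benjamini-Hochberg adjusted p = 0.0221), where SLC38A2 was lower by 0.24. The other 5 left-out symbols, SLC38A4-AS1 (0.18), SLC6A12-AS1 (0.04), SLC7A11-AS1 (0.20), SLC7A14-AS1 (0.01) and SLC7A6OS (-0.07), did not pass. Whether the 2 transcripts of that locus are linked was not tested.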
